A study of Mus musculus with 8 samples.

Results

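Pf4, Pdgfb, Gpr141, Adam19 and Tifab are 5 genes of the 54532 listed in the count tables, and all 5 were among the 14591 genes with enough counts to be tested. They were selected on their measured levels because, in earlier results of these data, both libraries treated with the STING antagonist H151 lay above both libraries treated with the antagonist SN-011 and above the untreated knockout. That pattern is therefore the reason for their choice and not a result. RNA-Seq was done on bone marrow-derived macrophages (BMDMs), grown for 7 days in medium conditioned by L929 cells from the marrow of mice aged 6 to 8 weeks. The 4 groups, of 2 libraries each, were wild-type (WT) BMDMs given the vehicle DMSO, Trex1-/- BMDMs given DMSO (Trex1-KO), Trex1-/- BMDMs given 500 nM H151 (Trex1-KO+H151) and Trex1-/- BMDMs given SN-011 (Trex1-KO+SN-011). Treatments lasted 12 h. The labels give no dose of SN-011, for which the study's methods state the same 500 nM as for H151. No WT library was treated with an antagonist.

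TREX1 is an exonuclease that removes DNA from the cytosol, and without it the DNA sensor cGAS and its adaptor STING stay active and drive interferon-stimulated genes. H151 and SN-011 both bind STING and block it, at different sites. The 5 genes encode proteins with separate tasks. Pf4 encodes platelet factor 4 (CXCL4), a chemokine best known from platelet granules that some macrophages also make. Pdgfb encodes the B chain of platelet-derived growth factor, which acts on fibroblasts and pericytes through PDGF receptors. Gpr141 encodes an orphan G protein-coupled receptor, Adam19 a membrane-anchored metalloprotease, and Tifab a forkhead-associated domain protein that restrains the TIFA-TRAF6 route to NF-kappaB.

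Library totals ran from 11845470 to 17284863 counts, so 1 count was worth 0.0580 to 0.0848 CPM (counts divided by the library total after TMM scaling, in the usual unit). Replicates of a group correlated at r = 0.990 to 0.991 over the 14591 tested genes. The study describes its 2 replicates as independent experiments, but the labels do not say whether they came from separate animals, so p-values measure only the spread between these libraries. The labels of the 2 SN-011 libraries carry another treatment text than those of the other 6, so a difference in handling limited to them cannot be told apart from SN-011 itself. Trex1 had 0 counts in all 8 libraries, WT included, and 100% of its exonic bases also lie in exons of Atrip, so the deletion could not be checked from its counts. All 10 macrophage markers were measured in every group, and their summed level, most of it Lyz2 and Csf1r, was 34067 to 36856 CPM in each library. In Trex1-KO against WT 4 of the 10 were called higher, Fcgr1 the most (log2 fold change 1.14), and Fcgr1 was called lower with H151 (-0.50) and SN-011 (-0.49). As this is bulk RNA, more cells of a type and more RNA per cell cannot be told apart.

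The promoters of Pf4, Gpr141 and Adam19 are printed because Pf4 had the highest level of the 5 genes, Gpr141 the largest fold differences, and Adam19 a pattern against WT that the other 4 lacked. Each is the 250 bases before the RefSeq start (GRCm38.p6), 5′ to 3′ on the strand of the gene. For Adam19 the table lists 3 starts, and the window is that of the start nearest to the GENCODE start, 8 bases away, the other two not being searched. Capitals mark matches to the searched motifs on either strand.
Pf4: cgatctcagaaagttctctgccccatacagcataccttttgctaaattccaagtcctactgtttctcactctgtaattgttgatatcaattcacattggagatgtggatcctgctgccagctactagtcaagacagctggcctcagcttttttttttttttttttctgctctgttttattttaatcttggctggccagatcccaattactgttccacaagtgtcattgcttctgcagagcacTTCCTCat
Gpr141: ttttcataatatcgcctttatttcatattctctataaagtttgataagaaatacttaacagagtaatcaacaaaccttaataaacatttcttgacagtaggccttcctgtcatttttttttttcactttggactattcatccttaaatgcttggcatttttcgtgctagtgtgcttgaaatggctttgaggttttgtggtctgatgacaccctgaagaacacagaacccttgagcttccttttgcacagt
Adam19: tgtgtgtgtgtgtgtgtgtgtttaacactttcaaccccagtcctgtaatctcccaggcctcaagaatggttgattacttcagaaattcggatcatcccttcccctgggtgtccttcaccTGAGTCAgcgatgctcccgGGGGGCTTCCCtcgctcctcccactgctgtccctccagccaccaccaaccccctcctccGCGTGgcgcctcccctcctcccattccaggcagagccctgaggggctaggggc
The windows are chr5:90772185-90772434 (plus strand), chr13:19824258-19824507 (minus strand) and chr11:46055734-46055983 (plus strand). The motifs were the interferon-stimulated response element, the gamma-activated site TTCNNNGAA, the NF-kappaB motif, the xenobiotic response element GCGTG, the PU.1 core GAGGAA and the AP-1 motif TGANTCA, each on both strands. The Pf4 window held 1 match, the PU.1 core read on the opposite strand at bases -8 to -3 from the start. The Adam19 window held an AP-1 match at -131 to -125, 2 overlapping NF-kappaB matches between -112 and -102 and a GCGTG at -53 to -49. The windows of Gpr141 and Tifab held none of the 6 motifs. Among 32851 promoters in the table, 2.98% held the interferon-stimulated response element, 7.02% the gamma-activated site, 7.25% the NF-kappaB motif, 28.2% GCGTG, 23.3% GAGGAA and 6.75% the AP-1 motif. A match describes the letters in the window and is not a bound site.

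Pf4 (ENSMUSG00000029373, chromosome 5, 90772435 to 90773383, plus strand) was measured at 135 and 159 CPM in WT BMDMs, 173 and 194 CPM in Trex1-KO, 282 and 265 CPM in Trex1-KO+H151 and 166 and 183 CPM in Trex1-KO+SN-011. Both H151 libraries lay above the other 6, both WT libraries lay below the other 6, and the Trex1-KO and SN-011 libraries interleaved. The group means were 147 ± 17.1, 183 ± 14.8, 274 ± 12.0 and 175 ± 12.4 CPM (SD, n = 2 each). The Trex1-KO level exceeded the WT level by 0.31 ± 0.09 on the log2 scale (SE, edgeR quasi-likelihood test with Benjamini-Hochberg adjustment, adjusted p = 0.0224). That call was lost with library totals in place of TMM factors (edgeR adjusted p = 0.0894), without WT replicate 1 and without Trex1-KO replicate 2. Leaving out 1 library moved the log2 fold change between 0.18 and 0.44. With SN-011 the level differed from Trex1-KO by -0.07, with a 95% interval from -0.25 to 0.12 (edgeR adjusted p = 0.810). Against WT the SN-011 level was 0.25 ± 0.09 higher on the log2 scale (SE) and not called (edgeR adjusted p = 0.0907). It was called with every gene of at least 1 count kept (adjusted p = 0.0132), with only these 2 groups fitted (0.0206), with a replicate block (0.0390) and without WT replicate 2 (0.0330), all by edgeR.

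Pdgfb (ENSMUSG00000000489, chromosome 15, 79995874 to 80014977, minus strand) was measured at 52.0 and 58.8 CPM in WT BMDMs, 57.0 and 55.1 CPM in Trex1-KO, 85.6 and 81.1 CPM in Trex1-KO+H151 and 56.8 and 62.1 CPM in Trex1-KO+SN-011. The 6 libraries without H151 interleaved, and both H151 libraries lay above them. Group means were 55.4 ± 4.85, 56.0 ± 1.38, 83.4 ± 3.199 and 59.5 ± 3.75 CPM (SD, n = 2 each). Trex1-KO differed from WT by 0.01 on the log2 scale, with a 95% interval from -0.16 to 0.19 (edgeR adjusted p = 0.943). SN-011 differed from Trex1-KO by 0.08, with an interval from -0.09 to 0.26 (edgeR adjusted p = 0.740). The 6 libraries without H151 ran from 52.0 to 62.1 CPM.

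Gpr141 (ENSMUSG00000053101, chromosome 13, 19749682 to 19824257, minus strand) was the rarest of the 5 transcripts. Its counts were 10 and 17 in WT, 39 and 47 in Trex1-KO, 91 and 106 in Trex1-KO+H151 and 49 and 23 in Trex1-KO+SN-011. In CPM these were 0.735 and 1.15, 2.94 and 3.11, 7.40 and 7.12, and 2.84 and 1.95. The WT libraries were the lowest, the H151 libraries the highest, and the 2 SN-011 libraries lay between WT and Trex1-KO without overlapping either. Group means were 0.943 ± 0.293, 3.02 ± 0.120, 7.26 ± 0.200 and 2.40 ± 0.631 CPM (SD, n = 2 each). Trex1-KO was higher than WT by 1.66 ± 0.32 on the log2 scale (SE, edgeR adjusted p = 0.00260). SN-011 differed from Trex1-KO by -0.30, with a 95% interval from -0.90 to 0.29 (edgeR adjusted p = 0.714), and leaving out 1 library moved the value between -0.63 and -0.08. SN-011 was higher than WT by 1.36 ± 0.33 (SE, edgeR adjusted p = 0.0161), a call lost without WT replicate 1 (adjusted p = 0.1495) or without SN-011 replicate 1 (0.199).

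Adam19 (ENSMUSG00000011256, chromosome 11, 46055992 to 46147343, plus strand) was the one gene of the 5 that was lower in Trex1-KO than in WT. It was measured at 42.2 and 42.5 CPM in WT BMDMs, 28.8 and 31.1 CPM in Trex1-KO, 43.6 and 40.3 CPM in Trex1-KO+H151 and 26.6 and 26.9 CPM in Trex1-KO+SN-011. The WT and H151 libraries overlapped, the Trex1-KO libraries lay below both, and the SN-011 libraries were the lowest. Group means were 42.4 ± 0.235, 30.0 ± 1.62, 41.9 ± 2.34 and 26.7 ± 0.179 CPM (SD, n = 2 each). Adam19 fell by 0.50 ± 0.09 on the log2 scale from WT to Trex1-KO (SE, edgeR adjusted p = 0.00126) and was 0.66 ± 0.09 lower with SN-011 than in WT (log2 fold change -0.66, edgeR adjusted p = 0.000209). SN-011 differed from Trex1-KO by -0.17, with a 95% interval from -0.36 to 0.03 (edgeR adjusted p = 0.506). H151 differed from WT by -0.02, with an interval from -0.20 to 0.17. Of its exonic bases 10.1% are shared with Gm16033 and Gm16034, and the strand setting of the counting is not given in the sources used here.

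Tifab (ENSMUSG00000049625, chromosome 13, 56173704 to 56178885, minus strand) was measured at 74.0 and 78.2 CPM in WT BMDMs, 80.9 and 86.4 CPM in Trex1-KO, 104 and 123 CPM in Trex1-KO+H151 and 78.6 and 78.1 CPM in Trex1-KO+SN-011. Both H151 libraries lay above the other 6, but they were farther apart than the libraries of any other group. Group means were 76.1 ± 2.97, 83.7 ± 3.94, 113 ± 13.02 and 78.4 ± 0.399 CPM (SD, n = 2 each). Trex1-KO differed from WT by 0.14, with a 95% interval from -0.04 to 0.31 (edgeR adjusted p = 0.307). Leaving out 1 library moved that value between 0.08 and 0.18. SN-011 differed from Trex1-KO by -0.09, with an interval from -0.27 to 0.08 (edgeR adjusted p = 0.693), and from WT by 0.04 (edgeR adjusted p = 0.827).

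**Figure D1:**
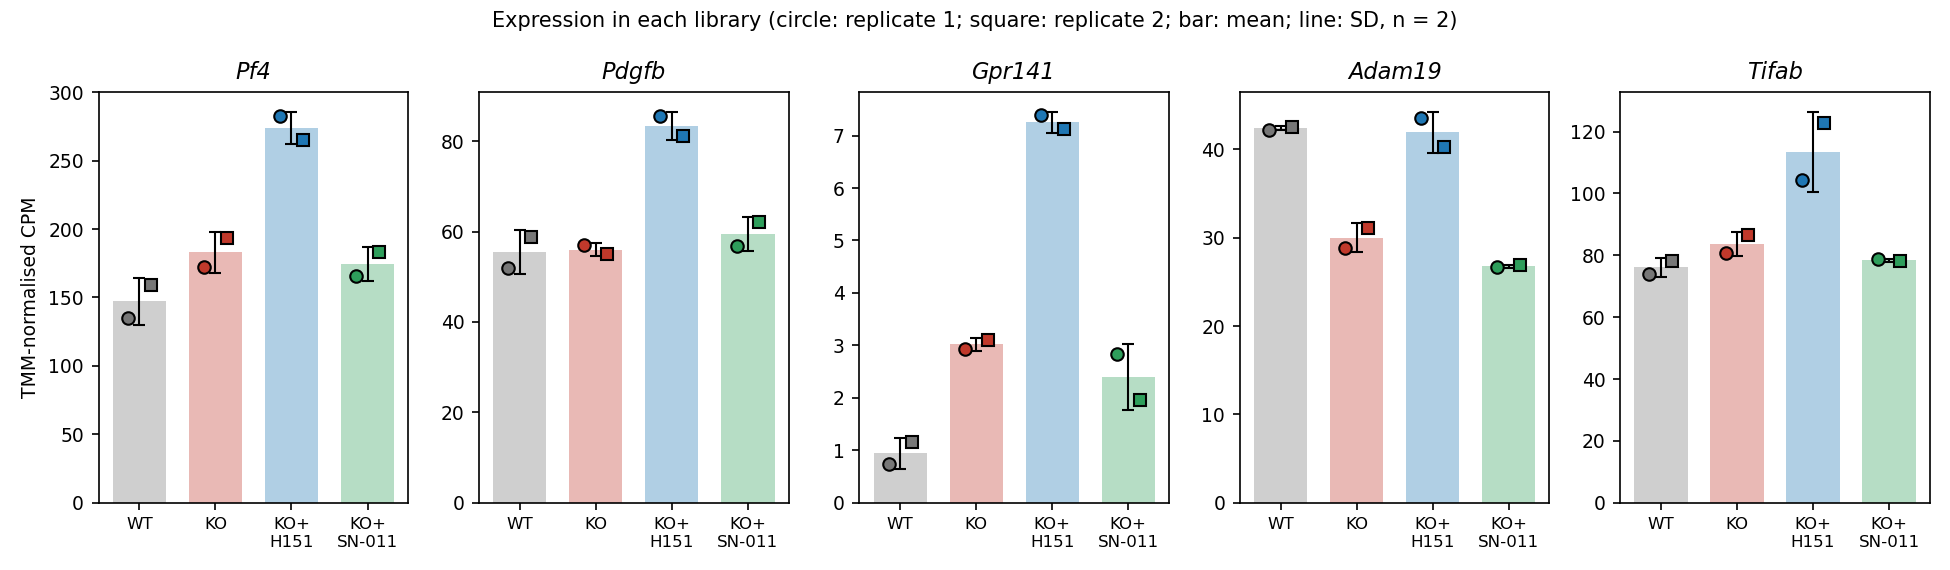
TMM-normalised CPM (vertical axes, each from 0) of the 5 genes in each library, with bars for group means and lines for the SD of 2 libraries. The H151 libraries lie above the other 6 for Pf4, Pdgfb, Gpr141 and Tifab, and overlap WT for Adam19.

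Per length the order of the 5 genes was the same in every group. In RPKM (CPM per kilobase of exon) the Trex1-KO means were 254 ± 20.6 for Pf4, 23.9 ± 1.13 for Tifab, 13.5 ± 0.331 for Pdgfb, 4.21 ± 0.227 for Adam19 and 0.506 ± 0.0201 for Gpr141 (SD, n = 2). With H151 they were 380 ± 16.6, 32.4 ± 3.72, 20.03 ± 0.769, 5.89 ± 0.328 and 1.21 ± 0.0335 RPKM in the same order. No pair of neighbours in that order overlapped in either group.

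The contrast of H151 with Trex1-KO chose the genes, so its values are a description. The log2 fold changes were 1.26 for Gpr141, 0.58 for Pf4, 0.57 for Pdgfb, 0.48 for Adam19 and 0.44 for Tifab. Against SN-011 they were 1.56, 0.65, 0.49, 0.65 and 0.54. Among all tested genes 0.37% were called higher in H151 against Trex1-KO and 0.158%, or 23 genes, in H151 against SN-011, and 16 of these 23 were called higher in both. In all, 1093 genes (7.49%) had both H151 libraries above both Trex1-KO and both SN-011 libraries, so the pattern itself was not rare. The gap between the lowest H151 library and the highest Trex1-KO or SN-011 library was narrowest for Tifab, at 104 against 86.4 CPM (0.27 on the log2 scale), and widest for Gpr141 (1.20). Of the 23 genes called in H151 against SN-011, Csf2rb2 lay just inside that pattern with a gap of 0.02, and Il21r (-0.07), Cd74 (-0.10) and Ehd1 (-0.25) overlapped.

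Against WT, which the rule did not use, 2 of the 5 genes were called higher in Trex1-KO (Pf4 and Gpr141) and 1 lower (Adam19), where 9.32% of all tested genes were called higher and 7.05% lower. None of the 5 was called in SN-011 against Trex1-KO by the edgeR quasi-likelihood test, DESeq2 or the edgeR exact test, and none had an unadjusted p under 0.05. Over all genes 2.36% were called in that contrast and 12.1% had an unadjusted p under 0.05. In SN-011 against WT 1 gene (Gpr141) was called higher and 1 (Adam19) lower, beside 6.13% higher and 5.6% lower of all genes. The Trex1-KO and SN-011 libraries entered the rule as the low side, so these tests are not fully independent of the choice.

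The H151 libraries had been selected as high, so H151 against WT is also given as a description, with no p-value. The log2 fold changes were 2.92 ± 0.29 for Gpr141, 0.89 ± 0.09 for Pf4, 0.59 ± 0.08 for Pdgfb and 0.58 ± 0.08 for Tifab (SE), and the Adam19 libraries with H151 overlapped those of WT. For the first 4 genes, whose Trex1-KO level was not below WT, a larger distance from WT with H151 was fixed by the choice. Both H151 libraries lay above the other 6 for 590 of all tested genes (4.04%).

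**Figure D2:**
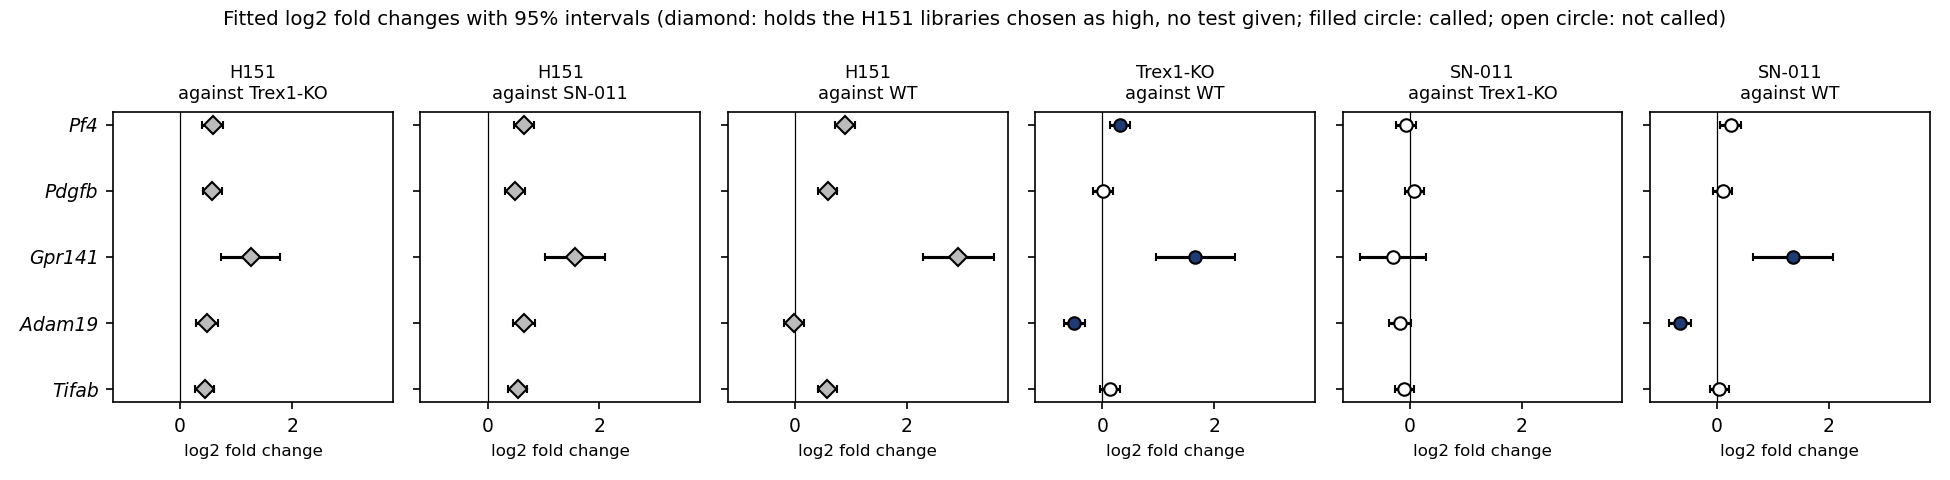
Fitted log2 fold changes (horizontal axes) with 95% intervals for the 5 genes in 6 contrasts. Diamonds mark contrasts that hold the H151 libraries chosen as high and are shown with no test. Their intervals do not allow for that choice, so an interval apart from 0 is no evidence of a difference. Filled circles mark called differences and open circles differences not called. Every SN-011 against Trex1-KO interval includes 0.

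Interferon-stimulated genes, the usual readout of STING, moved the other way with H151. In Trex1-KO against WT all 10 listed were called higher (median log2 fold change 2.31) and all 10 lower with H151 (-1.65) and with SN-011 (-1.43), against medians near 0.00 over all tested genes. Ifit1, which encodes an RNA-binding antiviral protein, was measured at 242 and 197 CPM in Trex1-KO, 57.8 and 70.8 CPM with H151 and 65.8 and 79.3 CPM with SN-011. None of the 10 was called between the antagonists, and none had an unadjusted p under 0.05 there. The contrasts with either antagonist share the Trex1-KO libraries.

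Pf4 has close relatives and partners, of which 7 of 9 listed were tested. Ppbp, a platelet chemokine gene whose end lies 2.37 kb from Pf4, was measured at 2.16 ± 0.498 CPM in Trex1-KO and 3.48 ± 0.206 CPM with H151 (SD, n = 2), and its difference of 0.68 was not called (edgeR adjusted p = 0.510). Ppbp was higher with H151 than in WT by 1.54 ± 0.34 (SE, edgeR adjusted p = 0.00831). Ccr1, a receptor that CXCL4 can engage, was measured at 4.49 and 3.65 CPM in WT BMDMs, 6.40 and 6.87 CPM in Trex1-KO, 10.98 and 10.1 CPM with H151 and 6.26 and 8.14 CPM with SN-011. The Ccr1 libraries with H151 lay above the other 6. The rise of Ccr1 over WT was 1.37 ± 0.19 with H151 (SE, edgeR adjusted p = 0.000355), 0.71 ± 0.20 in Trex1-KO (0.0292) and 0.81 ± 0.20 with SN-011 (0.0178). Srgn, the granule proteoglycan that holds CXCL4, was higher than WT in Trex1-KO by 0.46 ± 0.07 (SE, edgeR adjusted p = 0.000450). None of the 7 was called in H151 against Trex1-KO, where their median was -0.04, and with SN-011 Cxcl2, a neutrophil chemokine gene, was the 1 gene called, at -1.23 ± 0.21 (SE, edgeR adjusted p = 0.00597). With H151 Cxcl2 was at -0.86 ± 0.21 (SE, edgeR adjusted p = 0.0531), and it was not called between the antagonists (0.671).

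In the PDGF system 9 of 10 listed genes were tested, and none was called with either antagonist against Trex1-KO. Against WT the Trex1-KO libraries were lower in both receptor genes, with log2 fold changes of -1.24 ± 0.25 for Pdgfra (SE, edgeR adjusted p = 0.00374) and -1.10 ± 0.17 for Pdgfrb (0.000398). Nrp1, a co-receptor of several growth factors, rose by 0.32 ± 0.06 (SE, edgeR adjusted p = 0.00230), and Pdgfc and Lrp1 were also called higher. The ligand gene Pdgfa was measured at 14.01 and 13.95 CPM in Trex1-KO and 14.4 and 16.9 CPM with H151. Per length with H151, where Pdgfb was chosen as high, Pdgfb (20.03 RPKM) stood above Pdgfc (13.4), Pdgfa (5.02) and Pdgfd (0.768). In Trex1-KO Pdgfc (14.01) and Pdgfb (13.5) were close, as they were with SN-011 (14.5 and 14.3). In WT Pdgfb (13.3) also stood above Pdgfc (11.4).

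Of 14 listed ADAM proteases and regulators 12 were tested. None was called with either antagonist against Trex1-KO, where 2.22% (H151) and 2.36% (SN-011) of all tested genes were. In Trex1-KO against WT 3 were called higher and 5 lower, beside 9.32% and 7.05% of all tested genes. Adam8, a myeloid sheddase, was higher by 0.73 ± 0.07 (SE, edgeR adjusted p = 5.16e-06), whereas Adam23 and Adam12 were lower, with log2 fold changes of -3.13 ± 0.40 (9.64e-05) and -1.09 ± 0.24 (0.00668). Adam12, the closest match to Adam19 in transcript sequence (67.1% identity over 1139 bases), was measured at 5.57 and 3.44 CPM in Trex1-KO and 7.24 and 5.30 CPM with H151, and these libraries overlapped. Against WT the log2 fold change of Adam12 was -0.61 ± 0.24 with H151 and -0.72 ± 0.24 with SN-011 (SE). Neither was called (edgeR adjusted p = 0.121 and 0.0682).

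**Figure D3:**
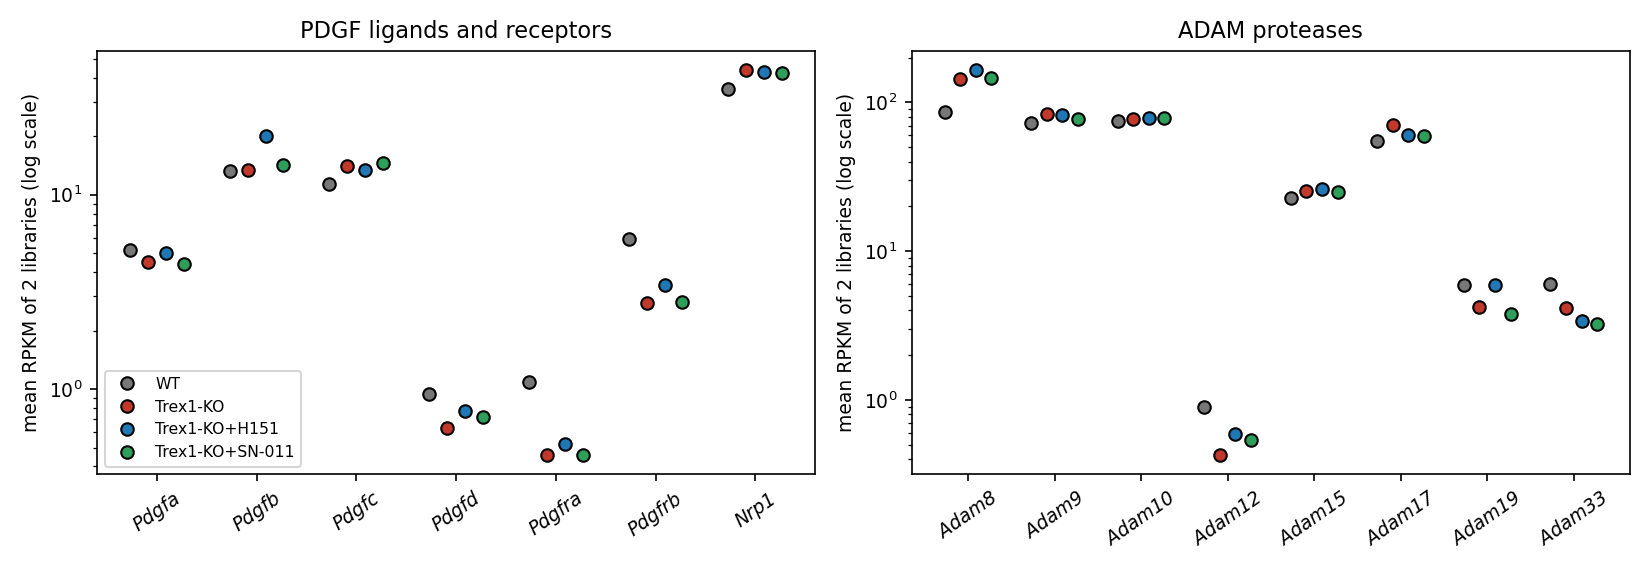
Mean RPKM of 2 libraries (vertical log axes) for PDGF ligands and receptors (left) and ADAM proteases (right) in the 4 groups. Pdgfb and Adam19 are the genes described here, and the means of Pdgfra, Pdgfrb, Adam12 and Adam33 are lower in the 3 Trex1-KO groups than in WT.

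All 14 listed genes of TIFA-TRAF6 signalling were tested, and none was called in H151 against Trex1-KO. Tifa, whose product TIFAB binds, was measured at 154 and 186 CPM in Trex1-KO and 141 and 161 CPM with H151. With SN-011 the NF-kappaB inhibitor gene Tnfaip3 was lower than in Trex1-KO, its log2 difference being -0.65 ± 0.13 (SE, edgeR adjusted p = 0.0161), as was Alpk1, which encodes a kinase that activates TIFA, at -0.37 ± 0.08 (0.0246). With H151 the values were -0.50 ± 0.13 for Tnfaip3 (SE, edgeR adjusted p = 0.0740) and -0.20 ± 0.08 for Alpk1 (0.396), and neither was called between the antagonists. Against WT the adaptor gene Myd88 rose by 0.45 ± 0.08 (SE, edgeR adjusted p = 0.00118) and Alpk1 by 0.33 ± 0.08 (0.0117) in Trex1-KO.

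Of 12 listed G protein-coupled receptor genes of myeloid cells 10 were tested, and 1 was called in H151 against Trex1-KO, in the opposite direction to Gpr141. Gpr84, a receptor of medium-chain fatty acids, was measured at 10.1 and 10.6 CPM in Trex1-KO, 3.25 and 3.02 CPM with H151 and 2.55 and 1.78 CPM with SN-011. Its log2 fold change was -1.72 ± 0.36 with H151 (SE, edgeR adjusted p = 0.0201) and -2.22 ± 0.37 with SN-011 (0.00446). Gpr132 and Gpr65, which sense lipids or protons, were also lower with SN-011, at log2 fold changes of -0.75 ± 0.14 (SE, edgeR adjusted p = 0.00792) and -0.28 ± 0.06 (0.0290). With H151 they were at -0.31 ± 0.13 (SE, edgeR adjusted p = 0.456) and -0.23 ± 0.06 (0.0959), and neither was called between the antagonists. In all, none of the 98 tested genes on the lists of pathways and cell markers was called in H151 against SN-011. Over all genes 0.158% were called there, so a count of 0 sets no list apart. Against Trex1-KO 12 of the 98 were called with H151 and 17 with SN-011, 10 of each being interferon-stimulated genes. The shares over all tested genes were 2.22% and 2.36%.

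**Figure D4:**
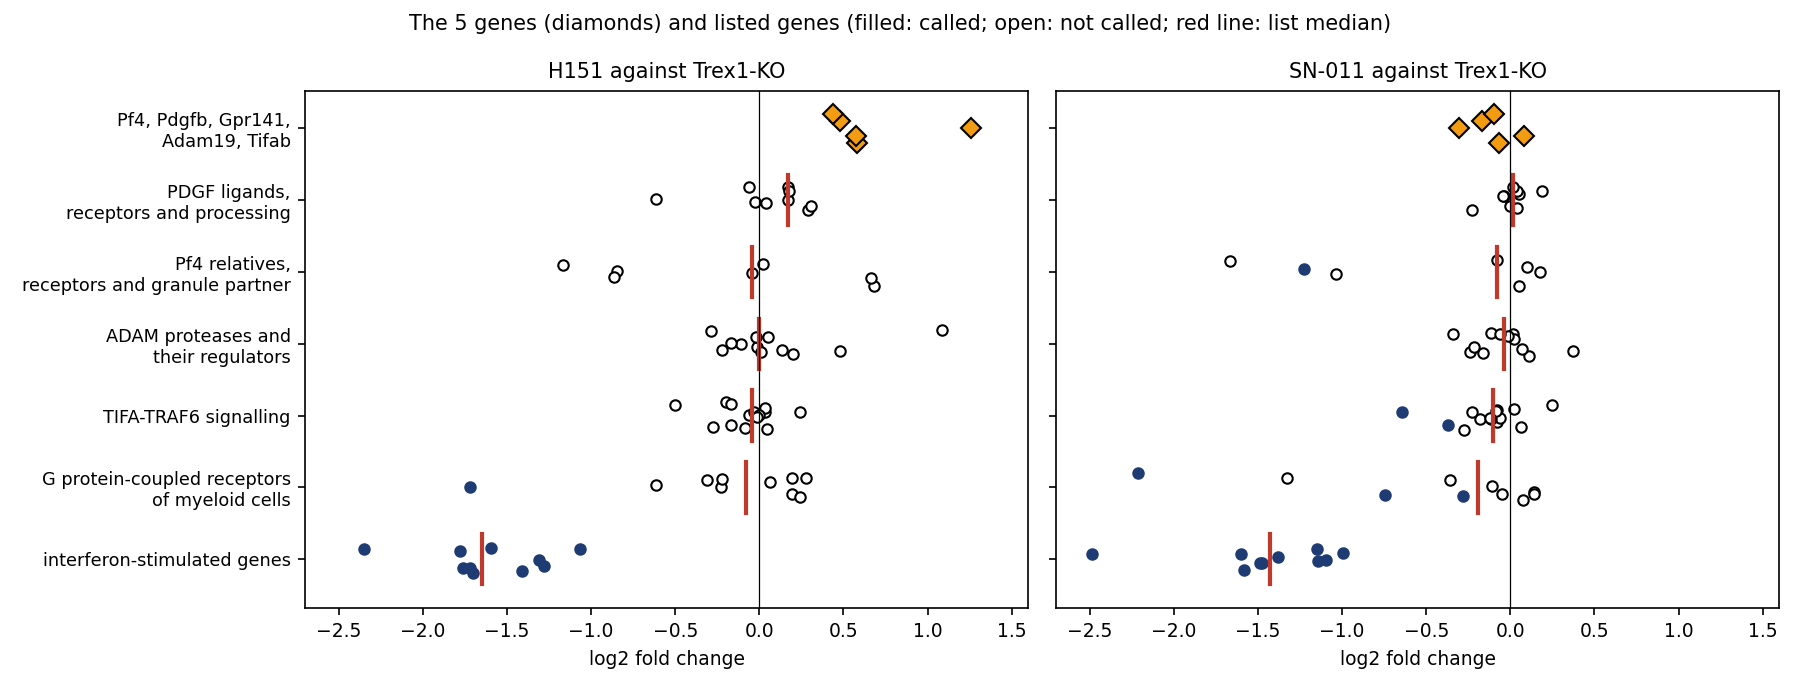
Log2 fold changes (horizontal axes) of the 5 genes (diamonds) and of listed genes by pathway in H151 and SN-011 against Trex1-KO, filled where called, with red lines at list medians. The 10 interferon-stimulated genes lie below 0 in both panels, and the 5 genes, which were chosen for it, lie above 0 with H151.

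The nearest tested genes on either side of each gene were not called in H151 against Trex1-KO or in H151 against SN-011, 10 neighbours in all, where 2.22% and 0.158% of all tested genes were called, so a count of 0 in 10 does not set them apart. Cxcl14, a chemokine gene 110 kb from Tifab, was lower in Trex1-KO than in WT, its log2 difference being -0.65 ± 0.09 (SE, edgeR adjusted p = 0.000221), and Cyfip2, 46.5 kb from Adam19, was higher by 0.83 ± 0.13 (0.000403).

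Over the 8 libraries the log2 CPM of Pf4 correlated with Pdgfb, Gpr141 and Tifab at r = 0.94, 0.93 and 0.92. Adam19 correlated with the other 4 at 0.01 to 0.42 over 8 libraries and at 0.91 to 0.98 over the 6 Trex1-KO libraries. These values describe libraries that share groups, and the choice of genes fixes much of them. The genes most like the mean pattern of the 5, out of 11943 candidates, were Rcbtb2 (r = 0.96), Ugt1a7c (0.96), Gm25047, Akr1b8, Plaur, Emb, Xpc, Npepps, Gsdme and Arhgap21 (0.94). Emb, which encodes the membrane glycoprotein embigin, was at 127 ± 0.887 CPM in Trex1-KO and 173 ± 1.10 CPM with H151 (SD, n = 2). It was the 1 gene of these 10 also among the first 10 over the 6 Trex1-KO libraries. Emb and Ugt1a7c were themselves among the 16 genes called higher with H151 against both Trex1-KO and SN-011. Their likeness is thus not independent of the pattern that chose the 5.

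Markers of other cells were present at low to moderate levels. The summed level of 14 megakaryocyte and platelet markers, 6 of which were tested, was 20.1 to 23.2 CPM in WT, 27.5 to 28.4 in Trex1-KO, 29.7 to 30.4 with H151 and 29.3 to 31.3 with SN-011. The sums with H151 and with SN-011 overlapped, and both lay above those of Trex1-KO. Of the 14 markers 6 had at most 3 counts in any library, among them Gp1bb at 0 counts in all. Of the 6 tested, Vwf and Clec1b were called higher in Trex1-KO against WT, Vwf, Clec1b and Ppbp in H151 against WT, and none in H151 against Trex1-KO or SN-011. Clec1b, which encodes the platelet receptor CLEC-2, was measured at 1.10 and 1.22 CPM in WT BMDMs, 2.41 and 2.25 in Trex1-KO, 3.01 and 2.82 with H151 and 1.62 and 2.04 with SN-011. The H151 libraries were the highest for Clec1b and Ppbp but not for Vwf, Treml1, Itga2b or Gp1ba. In H151 against Trex1-KO the log2 fold change was -0.03 for Vwf, and the median of the 6 was 0.25. The part of these cells in the Pf4 result was not tested. The sum of 8 stromal markers, 7 tested, with Pdgfra among them, was 2071 to 2269 CPM in WT, 853 to 1047 in Trex1-KO, 1092 to 1201 with H151 and 921 to 1104 with SN-011. That sum was lower in Trex1-KO than in WT, as Adam19 and the PDGF receptor genes were. With H151 the sum lay wholly above Trex1-KO, as Adam19 did. It stayed below both WT libraries, whereas Adam19 with H151 overlapped WT. With SN-011 the sum overlapped those of Trex1-KO and H151. Col1a1 and Col1a2 made up most of the sum, at 949 and 1174 CPM in WT replicate 1. Col3a1 and Pdgfra libraries with H151 overlapped those of Trex1-KO, and Dcn was not lower in Trex1-KO than in WT (log2 fold change 0.46, not called). The part of stromal cells in those results was not tested. The sum of 5 endothelial markers was 26.9 CPM in both WT libraries, 44.9 to 57.2 in Trex1-KO, 56.7 to 63.3 with H151 and 52.0 to 54.5 with SN-011. The sum of 9 neutrophil markers was 9.40 to 9.86 CPM in WT, 66.0 to 87.4 in Trex1-KO, 78.5 to 83.0 with H151 and 78.6 to 100.4 with SN-011. The part of either in the results on the 5 genes was not tested. The sums of dendritic cell, lymphocyte and mast cell markers lay between 0.403 and 3.61 CPM in every library.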

How the data were processed

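The 8 libraries were grouped by their titles. Per the submitters' notes reads were aligned to mm10 with HISAT2 and counted with HTSeq, whereas the study's methods name Trimmomatic, hisat2 and featureCounts. The deposited values are raw counts per Ensembl gene, with no normalization by the authors. Symbols, positions and exonic lengths came from GENCODE M21 (GRCm38) and promoters from a RefSeq table used here, in which 4 of the 5 genes were matched.

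Genes were kept with filterByExpr (minimum count 10, minimum total 15). Contrasts were tested with the two-sided edgeR 4.0.16 quasi-likelihood test in R 4.3.3, all 8 libraries in 1 fit, with Benjamini-Hochberg adjustment over 14591 genes. Genes under a false discovery rate of 0.05 are said to be called. The common coefficient of variation was 0.0657. SE was taken as the absolute log2 fold change divided by the root of F. Near-identical copies were sought with BLAST 2.17.0, and no other gene matched over more than 50 bases at 95% identity or above.

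The 5 genes and the lists were chosen with earlier results of these data known. The planned test of H151 against WT was run, and its p-values for the 5 genes are left out because their H151 libraries had been chosen as high. Named genes were the 5, up to 3 called genes per list and contrast, the nearest neighbours and the 10 most alike genes. Csf2rb2, Il21r, Cd74, Ehd1, Tifa, Pdgfa, Pdgfd, Csf1r, Lyz2, Col1a1, Dcn, Treml1, Itga2b, Gp1ba and Gp1bb were named after their values were seen. Alternatives were DESeq2 1.42.0, the edgeR exact test, library totals, another filter, 2-group fits, a replicate block and leaving out each library. Library depth bears on counting error and on which genes pass the filter.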

Additional observations from a re-analysis of the deposited data

Results flagged for a closer look

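Gpr141, Adam19 and Tifab had both H151 libraries above both Trex1-KO libraries and both SN-011 libraries below them, so the libraries of the 2 antagonists lay on opposite sides of Trex1-KO. For Gpr141 the nearest libraries were 2.84 CPM with SN-011 and 2.94 CPM in Trex1-KO. The H151 side was fixed by the choice of the genes, and 43.1% of all tested genes had SN-011 and Trex1-KO libraries that did not overlap, in either direction. The log2 fold changes of H151 against SN-011 were 1.56 for Gpr141, 0.65 for Adam19 and 0.54 for Tifab. The difference was not tested for these genes, because the same contrast had chosen them, and none of the 3 was called in SN-011 against Trex1-KO by the edgeR quasi-likelihood test.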

How the results depend on the processing

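Depth limits Gpr141 most, with 10 to 106 counts per library. Groups of 2 libraries give wide intervals, and each leave-one-out fit assumes that a lone library varies like the other groups. Among the other contrasts, signs turned only where the difference was near 0 and not called. Pdgfb in Trex1-KO against WT was -0.073 with library totals, -0.0027 with every gene of at least 1 count kept and -0.089 to 0.11 leaving out 1 library. Tifab in SN-011 against WT was -0.013 with library totals and -0.0076 to 0.084 leaving out 1 library. Leaving out 1 library gave -0.14 to 0.017 for Pf4 in SN-011 against Trex1-KO and -0.087 to 0.032 for Adam19 in H151 against WT. Library totals moved the median of all genes in Trex1-KO against WT by -0.09.

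With every gene of at least 1 count kept, 525 genes were called in H151 against Trex1-KO, 679 in SN-011 against Trex1-KO and 266 in H151 against SN-011, and 21 listed genes in the first and 1 in the last. Genes called in H151 against SN-011 numbered 84 by the edgeR exact test, 35 by DESeq2 and 44 with the replicate block. Leaving out 1 library gave 1556 to 2651 called genes in Trex1-KO against WT, 131 to 493 in SN-011 against Trex1-KO, 2 to 291 in H151 against SN-011, 971 to 1790 in H151 against WT and 909 to 1933 in SN-011 against WT. In H151 against SN-011, 2 genes were called without SN-011 replicate 1, 11 without SN-011 replicate 2 and 291 without H151 replicate 2. Listed genes called ranged from 9 to 18 in SN-011 against Trex1-KO, 0 to 2 in H151 against SN-011 and 25 to 43 in SN-011 against WT, and 1 to 3 of the 5 genes in SN-011 against WT. The cause of these shifts was not tested.

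The labels give the groups the same replicate numbers but do not say what a number marks. With 2 numbers, deviations of same-numbered libraries correlated at 0.19 between Trex1-KO and H151 and at -0.02 to 0.06 between the other groups, and whether same-numbered libraries share more than a number is not known. The replicate block brought the called genes in H151 against SN-011 from 23 to 44. Among the 10 genes most like the 5, 1 was shared when WT was left out.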
